A study of Mus musculus with 20 samples.

Results

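The genes described here were 37 genes for the repair of broken or mismatched DNA and for the checkpoints that hold the cell cycle while DNA is damaged. They were chosen by gene symbol, from a list drawn up for this purpose, out of 24062 genes in the RNA-seq table and 27933 gene symbols in the single-cell tables. Of these, 36 matched by symbol as listed, and claspin was matched under Clspn. By role they comprised 8 genes of homologous recombination and strand invasion, 6 of end binding and resection, 4 of the Fanconi anaemia pathway, 7 checkpoint kinases and fork protection factors, 5 chromatin mediators of the damage signal, and 7 genes of end joining, single-strand break repair and mismatch repair.

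Homologous recombination copies a broken stretch of DNA from the sister chromatid, so it works in S and G2 phases of the cell cycle. The broken end is bound and trimmed to a single-stranded tail, and BRCA2 and its partners prepare that tail to invade the intact copy. Non-homologous end joining instead rejoins the ends directly and works throughout the cell cycle. Histone H4 lysine 20 (H4K20) methylation bears on the choice between the pathways, because 53BP1 binds methylated H4K20 and favours end joining, whereas BARD1, the partner of BRCA1, binds the unmethylated form found on newly replicated chromatin. Setd8 is the enzyme that places the first methyl group on H4K20.

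The RNA-seq libraries were from mouse neural stem cells (NSCs) in culture, infected with lentivirus carrying an shRNA against Setd8 or a scrambled shRNA, selected with puromycin and collected 3 days after infection according to the labels and to the study's text, although the table that the libraries matched (below) is headed 2 days. The labels give hippocampus as the tissue. The study's methods describe both a line from embryonic cortex and one from adult hippocampus, each passaged many times. These methods do not say which was sequenced. The study's results call the sequenced cells cultured mouse NSCs and name the adult hippocampal line for other experiments. The scRNA-seq and scATAC-seq libraries were from cells of the dentate gyrus sorted for EGFP under the Nestin promoter in C57BL/6 mice at postnatal day 5 (P5), 12 weeks and 24 weeks, with 1 library of each kind per age. The knockdown libraries and the aged libraries therefore came from different cells, in culture and in the animal.

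Only 4 of the 6 RNA-seq samples had values, because the files of the other two held gene symbols and lengths. The libraries labelled Setd8KD_1 and Setd8KD_2 matched control columns of the study's own table in 170 of 170 genes, and the libraries labelled Ctrl_3 and Setd8KD_3 matched a control and the knockdown column. The comparison was therefore of 3 control libraries with 1 knockdown library, and every library is named below by its label. The 4 libraries held 20040076 to 21493347 reads. Setd8 itself, the target of the shRNA, stood at 154, 143 and 143 TPM (transcripts scaled to gene length and library size) in the libraries labelled Ctrl_3, Setd8KD_1 and Setd8KD_2, and at 36.4 TPM in Setd8KD_3, 24.8% of the control mean (log2 fold change -1.98 ± 0.07, adjusted p = 0.000113). With the groups as labelled, none of 12703 genes passed the test in limma or in edgeR, with 86 and 53 genes at an unadjusted p under 0.05, so the calls below rest on the grouping by the table.

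Nearly all of the repair genes were lower after Setd8 knockdown. Of the 37 genes, 32 fell, none rose and 5 did not pass the test (limma on log2(TPM + 1), Benjamini-Hochberg adjusted p under 0.05 over 12703 genes). Over all genes tested, 21.7% fell and 20% rose. The median log2 fold change was -0.76 over the 37 genes and 0.00 over all genes. Fold changes here are on the log2(TPM + 1) scale, which shrinks them for genes at low TPM. Their sizes are therefore not strictly comparable between genes of different levels. In the knockdown library 36 of the 37 genes were below all 3 controls, against 40.8% of all genes, and the exception was Rnf8. The size of the change was moderate: 10 genes were at or below 50% of the control mean, 21 were between 50% and 75%, and 6 were above 75%. All 37 were measured with at least 101 reads in each library. Since the knockdown was 1 library, its own spread could not be estimated and was taken from the controls.

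**Figure D1:**
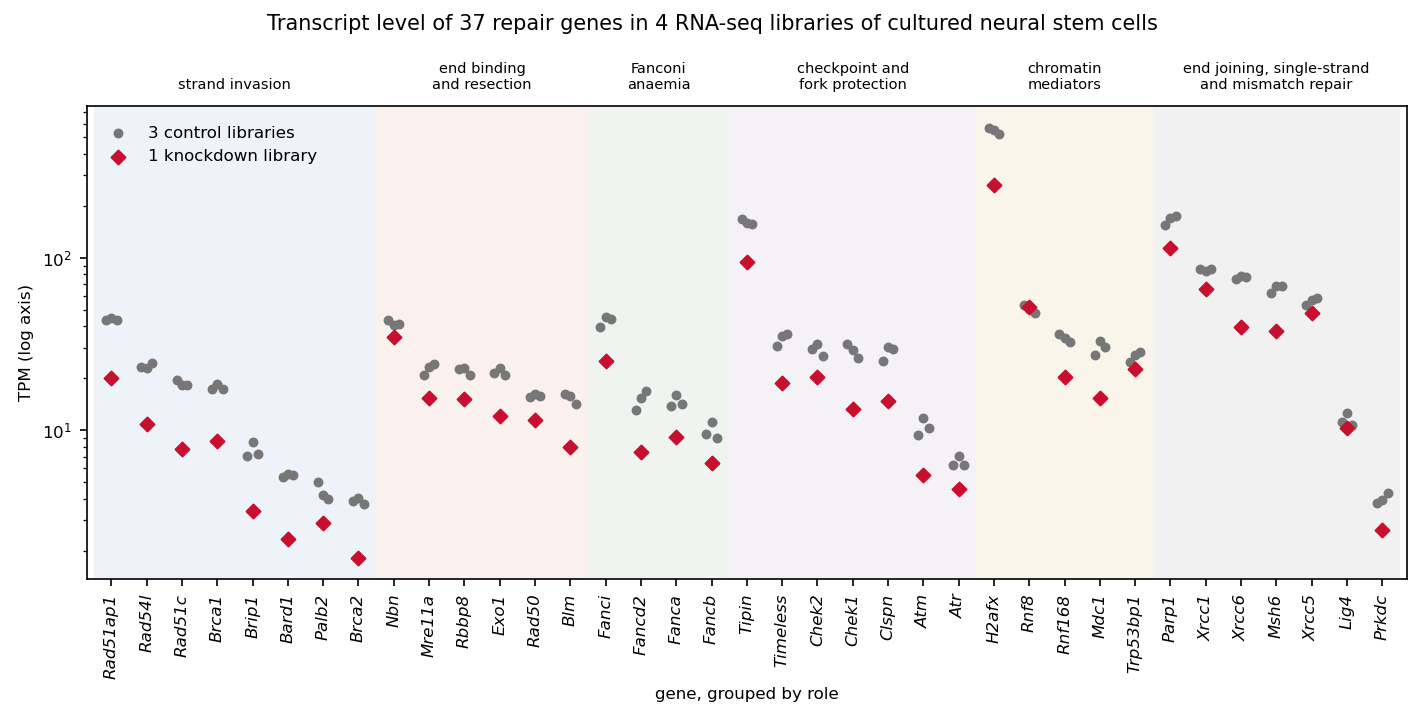
TPM (log axis) of each of the 37 genes in the 3 control libraries (grey points) and the 1 knockdown library (red diamond), grouped by role and ordered within a role by control mean. The red diamond lies below the grey points for 36 genes and inside their range for Rnf8.

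The strand invasion genes showed the largest typical fall, with 7 of 8 called and a median log2 fold change of -0.96. Rad51c, which acts in homologous recombination and the repair of crosslinks, was at 19.4, 18.2 and 18.4 TPM in the controls and 7.76 TPM in the knockdown library. It had the largest change of the 37 genes, at -1.17 ± 0.09 (log2 fold change ± SE, adjusted p = 0.000345). Rad51ap1, whose product stimulates strand invasion, was at 43.8, 44.4 and 43.5 TPM in the controls and 20.2 TPM after knockdown (-1.08 ± 0.07, adjusted p = 0.000185). Rad54l encodes a motor protein that acts during the search for the intact copy. Its levels were 23.3, 23.0 and 24.4 TPM in the controls and 10.9 TPM after knockdown (-1.04 ± 0.09, adjusted p = 0.000362). For each of these genes the controls lay close together and well above the knockdown value.

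Brca1, the ubiquitin ligase that directs broken ends towards recombination, was at 17.2, 18.4 and 17.2 TPM in the controls and 8.66 TPM in the knockdown library (-0.95 ± 0.09, adjusted p = 0.000637). Bard1, its obligate partner and the reader of unmethylated H4K20, was at 5.34, 5.53 and 5.49 TPM in the controls and 2.33 TPM after knockdown (-0.95 ± 0.13, adjusted p = 0.00212). Brip1, a helicase bound by BRCA1, and Brca2, which acts at the trimmed tail, were called as well, at -0.96 and -0.79. In TPM, Bard1 stood at 42.7% of the control mean, Brip1 at 44.7%, Brca2 at 46.8% and Brca1 at 49.1%. The order thus differed from that of the log2(TPM + 1) changes. Palb2, the bridge between BRCA1 and BRCA2, was the exception: its change of -0.46 ± 0.16 did not pass the test (adjusted p = 0.0602), with 4.99, 4.18 and 3.99 TPM in the controls and 2.90 TPM after knockdown.

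All 6 genes of end binding and resection fell, with a median of -0.52. The change was largest for the enzymes that extend the trimming and unwind DNA. Blm, a helicase that also takes apart recombination intermediates, was at 16.2, 15.8 and 14.3 TPM in the controls and 8.02 TPM after knockdown (-0.86 ± 0.11, adjusted p = 0.0015). Exo1, the exonuclease of long-range resection, was at 21.5, 22.8 and 21.0 TPM in the controls and 12.1 TPM after knockdown (-0.80 ± 0.09, adjusted p = 0.001). The subunits of the complex that first binds the end changed less: Mre11a, its nuclease, by -0.53, Rad50 by -0.44 and Nbn by -0.26. Rbbp8, the cofactor that starts resection with that complex, was at -0.51. Nbn had the smallest change of the 32 called genes, at 83.0% of the control mean. Its call was lost without Setd8KD_1 (adjusted p = 0.0674), without Setd8KD_2 (adjusted p = 0.0574) and in DESeq2 on the recovered reads (adjusted p = 0.0829).

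The 4 Fanconi anaemia genes, which act at crosslinks between the DNA strands, all fell, with a median of -0.69. Fancd2 and Fanci encode the pair of proteins that is clamped on DNA once the pathway is switched on. Fancd2 was at 13.1, 15.3 and 16.8 TPM in the controls and 7.47 TPM after knockdown (-0.92 ± 0.14, adjusted p = 0.00345). Fanci was at 39.8, 45.5 and 43.8 TPM in the controls and 25.1 TPM after knockdown (-0.76 ± 0.09, adjusted p = 0.00128). Fanca and Fancb, subunits of the ligase complex that modifies this pair, changed by -0.63 and -0.54, and the call of Fancb was lost without Setd8KD_1 (limma, adjusted p = 0.0502).

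All 7 checkpoint and fork protection genes fell, with a median of -0.82, although the kinases were not alike. Chek1, the effector kinase of the response to stalled replication, was at 31.5, 29.2 and 26.3 TPM in the controls and 13.3 TPM in the knockdown library (-1.07 ± 0.11, adjusted p = 0.00076). Clspn, the adaptor through which Chek1 is activated at forks, was at 25.1, 30.4 and 29.5 TPM in the controls and 14.7 TPM after knockdown (-0.90 ± 0.12, adjusted p = 0.00181). Timeless, which steadies the stalled fork together with Tipin, was at 30.8, 35.3 and 36.1 TPM in the controls and 18.9 TPM after knockdown (-0.82 ± 0.11, adjusted p = 0.00164). Tipin changed by -0.76. Of the kinases that sense damage, Atm, which responds to double-strand breaks, changed by -0.82 and Atr, which responds to single-stranded DNA, by -0.44. The call of Atr was lost without Setd8KD_1 (limma, adjusted p = 0.102) and without Setd8KD_2 (adjusted p = 0.0598). Chek2, the effector of Atm, was at -0.52.

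The chromatin mediators held both one of the largest falls and the gene that was not lower. H2afx encodes the histone variant that is phosphorylated around breaks, and it had the highest level of the 37 genes. Its values were 569, 549 and 521 TPM in the controls and 265 TPM after knockdown (-1.04 ± 0.06, adjusted p = 0.00016). Mdc1, the scaffold that binds the phosphorylated histone, was at 27.5, 32.8 and 30.4 TPM in the controls and 15.4 TPM after knockdown (-0.92 ± 0.11, adjusted p = 0.00115).

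The next steps of this relay differed from each other. Rnf8, the ubiquitin ligase recruited by MDC1, was at 53.3, 50.4 and 47.8 TPM in the controls and 51.5 TPM in the knockdown library (0.03 ± 0.08, adjusted p = 0.785), so the knockdown value lay among the controls. Rnf168, the ligase that follows it, changed by -0.72 and was called. Trp53bp1, which encodes 53BP1, the reader of methylated H4K20, was at 24.9, 27.3 and 28.5 TPM in the controls and 22.5 TPM after knockdown. Its change of -0.24 ± 0.10 did not pass the test (adjusted p = 0.0869), although it passed without Ctrl_3 (adjusted p = 0.0237) and in edgeR and DESeq2 on the reads recovered from TPM, as did Palb2 and Xrcc5 in edgeR. The difference between Bard1 and Trp53bp1 in their response was not tested.

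The genes of end joining, single-strand break repair and mismatch repair fell in 5 of 7 cases, with a median of -0.47. Xrcc6 and Xrcc5 encode Ku70 and Ku80, the subunits of the ring that binds a broken end before it is joined. Xrcc6 was at 75.3, 78.6 and 77.2 TPM in the controls and 39.4 TPM after knockdown (-0.95 ± 0.06, adjusted p = 0.000202). Xrcc5 was at 53.5, 56.5 and 58.7 TPM in the controls and 47.9 TPM after knockdown (-0.23 ± 0.08, adjusted p = 0.0507), and its change passed without Ctrl_3 (adjusted p = 0.0173) and with a mean TPM of at least 5 (adjusted p = 0.0400). Transcripts of the Ku subunits, whose proteins act as a pair, thus stood at 51.2% and 85.2% of the control mean. Msh6, which recognises mismatches, was at 62.4, 68.9 and 68.4 TPM in the controls and 37.8 TPM after knockdown (-0.80 ± 0.08, adjusted p = 0.000626). Parp1, the sensor of single-strand breaks, changed by -0.54, its partner Xrcc1 by -0.38 and Prkdc, the kinase recruited by Ku, by -0.47. The call of Prkdc (limma, adjusted p = 0.0447) was lost without Setd8KD_1 (adjusted p = 0.0927) and without Setd8KD_2 (adjusted p = 0.0898). Lig4, the ligase that seals joined ends, did not pass the test at -0.14 (adjusted p = 0.38), and its knockdown value of 10.3 TPM lay just below the lowest control at 10.7 TPM.

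Other repair genes and genes of the cell cycle were set beside these. Of 30 other recombination and Fanconi genes 22 fell and none rose, with a median of -0.52. Among them were Gen1, a nuclease that cuts joined DNA molecules (-1.24), and Ube2t, the conjugating enzyme of the Fanconi pathway (-1.20). Mms22l and Tonsl, the complex that reads unmethylated H4K20 at replication forks, were at -0.83 and -0.40 and both were called. Of 15 other checkpoint genes 12 fell and none rose (median -0.60), led by Cdc25c, a phosphatase that triggers mitosis (-1.21). Of 16 other genes of end joining, base and mismatch repair 10 fell and none rose (median -0.47). All 15 S phase genes fell, with a median of -0.86, as did all 15 genes of mitosis, with a median of -1.03. The median of the 37 repair genes, -0.76, thus lay beside those of genes whose transcripts follow the cell cycle. The share of cycling cells was not measured in these libraries, and in bulk RNA fewer cycling cells cannot be told apart from less RNA per cell. In separate cultures of NSCs the study reported that fewer cells took up EdU, a label of DNA synthesis, after Setd8 knockdown. Among 12 targets of p53 the direction was the opposite: 9 rose, 1 fell and the median was 0.57, with Bbc3, a promoter of cell death, at 1.27 and Ccng1 at 0.93.

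**Figure D2:**
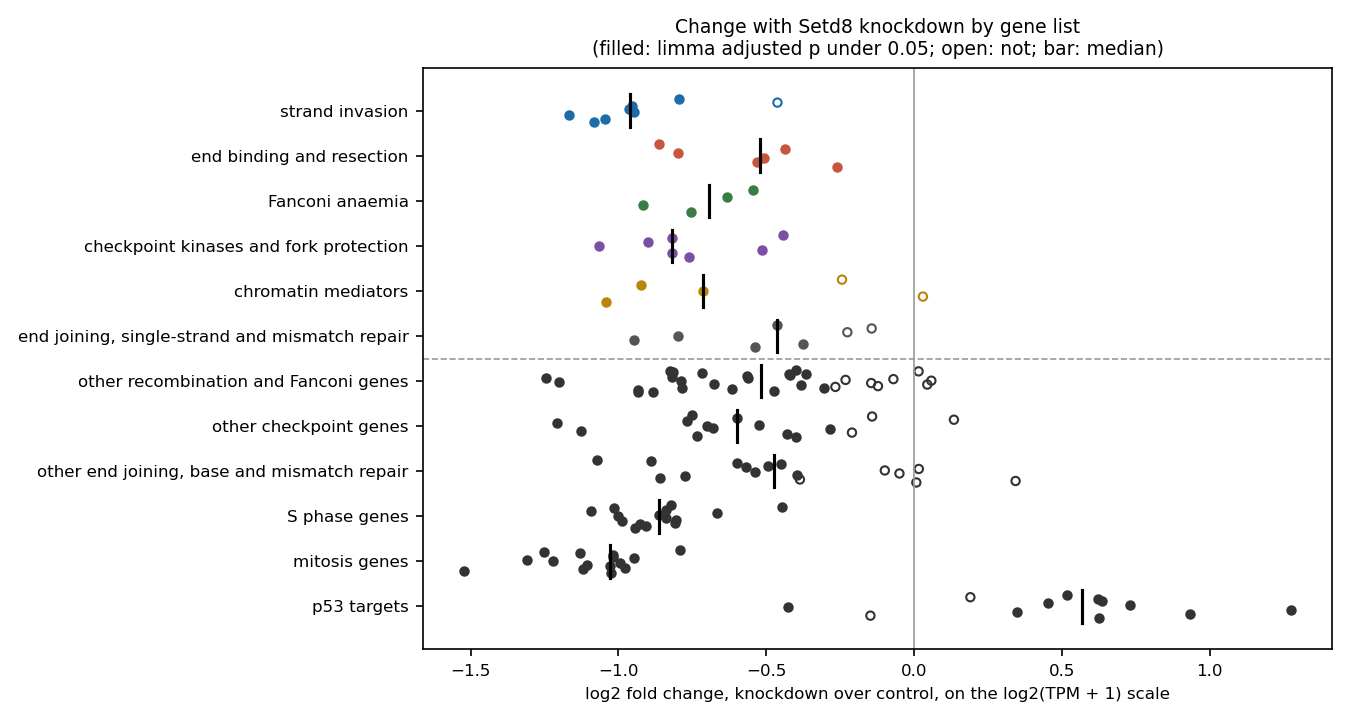
Log2 fold change of each gene (knockdown over control, on the log2(TPM + 1) scale) in the 6 roles of the 37 genes and in 6 other lists. Filled points passed the limma test, open points did not, and bars are medians. Repair, S phase and mitosis genes lie mostly to the left of 0. Of the 12 p53 targets 2 lie to the left of 0 and the others to the right, 9 of them filled.

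Markers of cell types were measured in the same libraries. All 6 markers of cultured NSCs, among them Nes and Sox2, were above the filter, and 3 of them fell. Summed over the list of 5 neuron markers, the level was 299.8 to 335 TPM in the controls and 228 TPM after knockdown, nearly all of it Map2, and Dcx had no reads. The members of this list did not move together: of the 3 tested, Map2 fell (log2 fold change -0.52), while Tubb3 and Syt1, at far lower levels, rose by 1.25 and 0.71. Tubb3, a tubulin of young neurons, was at 0.987, 1.28 and 1.49 TPM in the controls and 4.34 TPM after knockdown (adjusted p = 0.00386). The sums of the 5 astrocyte markers were 466 to 479 and 364 TPM, nearly all of it Aldoc, which fell. Gfap and S100b did not pass the test, Aqp4 was under the filter and Gjb6 had no reads. The sums of the 5 oligodendrocyte lineage markers were 1266 to 1344 and 1113 TPM, nearly all of it Olig2. Their part in the fall of the repair genes was not tested.

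The promoters of the 37 genes were searched for 3 motifs, of which the E2F-type site is known from genes expressed in S phase. RefSeq promoters (250 bases before to 50 after the start, mouse build GRCm38.p6) were found for 29 of the 37 genes. Those of Rad50, Nbn, Rbbp8, Exo1, Fancd2, Tipin, H2afx and Prkdc were missing. For Chek1, Fanci, Timeless, Xrcc1 and Xrcc6 the RefSeq promoter lay wholly downstream of the annotated 5′ end of the gene. The bases before that 5′ end were not searched in these genes. A site of the E2F type (TTTCCCGC, TTTCGCGC, TTTGCCGC or TTTGGCGC on either strand) was found in 8 of 29 genes: Bard1, Brca2, Chek2, Clspn, Mdc1, Msh6, Rad51c and Xrcc6. Over all 27025 genes with a promoter, 2.6% held one. A CCAAT box, a motif of many promoters, was found in 18 of 29 genes against 41.1% of all genes. The motif TTTGAA of genes expressed in G2 and mitosis was found in 2 of 29, Bard1 and Rnf8, against 20.2% of all genes. None of these motifs contains another, and a match is a description of the letters, not of binding.

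The windows around the E2F-type site are shown for the 5 genes in which it lay wholly before the RefSeq start used here. They run 5′ to 3′ on the strand of the gene, with the site in capitals. Each site carries TTTCCCGC or its reverse complement, and each window lay inside an open region in all 3 scATAC-seq libraries. The window of Bard1 is chr1:71103148-71103207 (minus strand), with the site starting 209 bases before the start. That of Brca2 is chr5:150522427-150522486 (plus strand, 168 bases before) and that of Chek2 chr5:110839805-110839864 (plus strand, 152 bases before). That of Xrcc6 is chr15:82016312-82016341 (plus strand, 46 bases before), and that of Mdc1 is chr17:35841456-35841497 (plus strand, 16 bases before). The Xrcc6 site lay downstream of other annotated starts of that gene, at 81987835 and 82015519. Its window overlapped an annotated untranslated region and was cut to 30 bases.
Bard1: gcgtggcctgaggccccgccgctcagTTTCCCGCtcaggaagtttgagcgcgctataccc
Brca2: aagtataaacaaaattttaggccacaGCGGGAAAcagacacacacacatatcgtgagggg
Chek2: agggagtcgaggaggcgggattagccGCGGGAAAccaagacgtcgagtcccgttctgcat
Xrcc6: agggggtggaaGCGGGAAAtgcgagtgggc
Mdc1: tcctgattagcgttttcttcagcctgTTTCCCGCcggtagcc
All 5 genes fell with Setd8 knockdown, as did 32 of all 37 repair genes. Their log2 fold changes were -0.95, -0.79, -0.52, -0.95 and -0.92 in this order. No E2F-type site was found in the RefSeq promoters of Xrcc5 and Rnf8, which did not pass the test. None was found in those of Brca1, Chek1 and Rad51ap1, which fell. The part of these sites in the change with knockdown was not tested.

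The start sites of the repair genes were open in the dentate gyrus at every age. A scATAC-seq peak lay within 500 bp of the annotated 5′ end of 36 of 37 genes at P5, against 66.9% of all protein-coding genes. At 12 weeks it was 35 of 37 against 67.9%, and at 24 weeks 35 of 37 against 66.4%. Among the genes with a TPM of at least 1 in the cultured NSCs the share was 94.1% at P5, so the share in the repair genes was close to that of other expressed genes. The genes without a peak were Rbbp8 and, in the adult libraries, Xrcc6, both of which have a far upstream transcript as their annotated 5′ end. At later annotated starts both had a peak in all 3 libraries. The deposited peaks were 1 list per library, so they do not show in which cell type a site was open.

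In the scRNA-seq libraries, 12752 cells at P5, 5271 at 12 weeks and 2794 at 24 weeks were kept, with medians of 4261, 2271 and 2178 UMIs (unique molecules) per cell. The libraries shared 26 to 98 cell barcodes in pairs. The sexes differed: transcripts of Xist and of the Y-linked gene Ddx3y were both found at P5, only Xist at 12 weeks and, beyond 2 UMIs of Xist, only Ddx3y at 24 weeks, so age, sex and library cannot be told apart. Clusters were named from marker genes as NSC-like, astrocyte-like (AS-like), neural progenitor-like (NPC-like) and immature neuron-like (IMN1-like and IMN2-like). The 37 genes were kept out of the genes used for clustering. An AS-like cluster was led by haemoglobin genes and an NSC-like cluster by Cyr61 and Fos, genes of an early stress response. NSC-like cells numbered 1122, 158 and 38 at P5, 12 weeks and 24 weeks, and NPC-like cells 1290, 250 and 44. UMIs were summed over the cells of a class in a library and given as CPM (UMIs of a gene scaled to the total of its class), with exact 95% Poisson intervals that cover counting error only.

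The repair genes were highest in the NPC-like cells, the class marked by cell cycle genes. Their summed level was 1734 CPM in NPC-like cells at P5 (interval 1708 to 1761), 2070 CPM at 12 weeks and 2116 CPM at 24 weeks. The sums for NSC-like cells were 503 CPM at P5, 494 CPM at 12 weeks and 464 CPM at 24 weeks. AS-like cells stood at 410, 409 and 376 CPM. IMN1-like cells were at 515, 569 and 498 CPM and IMN2-like cells at 500, 544 and 525 CPM (both at P5, 12 weeks and 24 weeks). In each library the interval of NPC-like cells thus lay above those of the other 4 classes. High levels were not limited to that class, since a cluster of cycling cells at P5 that was given no name stood at 1632 CPM. Pooled over libraries, 31 of the 37 genes were highest in NPC-like cells, against 16.5% of the 15372 genes with at least 10 UMIs in the 5 classes, and 26 were highest there in all 3 libraries, against 8.15%. H2afx and Tipin made up 45.6% of the 38132 UMIs of these genes in the 5 classes, while Fancb, the lowest, had 94 UMIs. NPC-like cells had 7016 to 7604 UMIs per cell on average and NSC-like cells 3817 to 4113, a difference that CPM divides out.

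**Figure D3:**
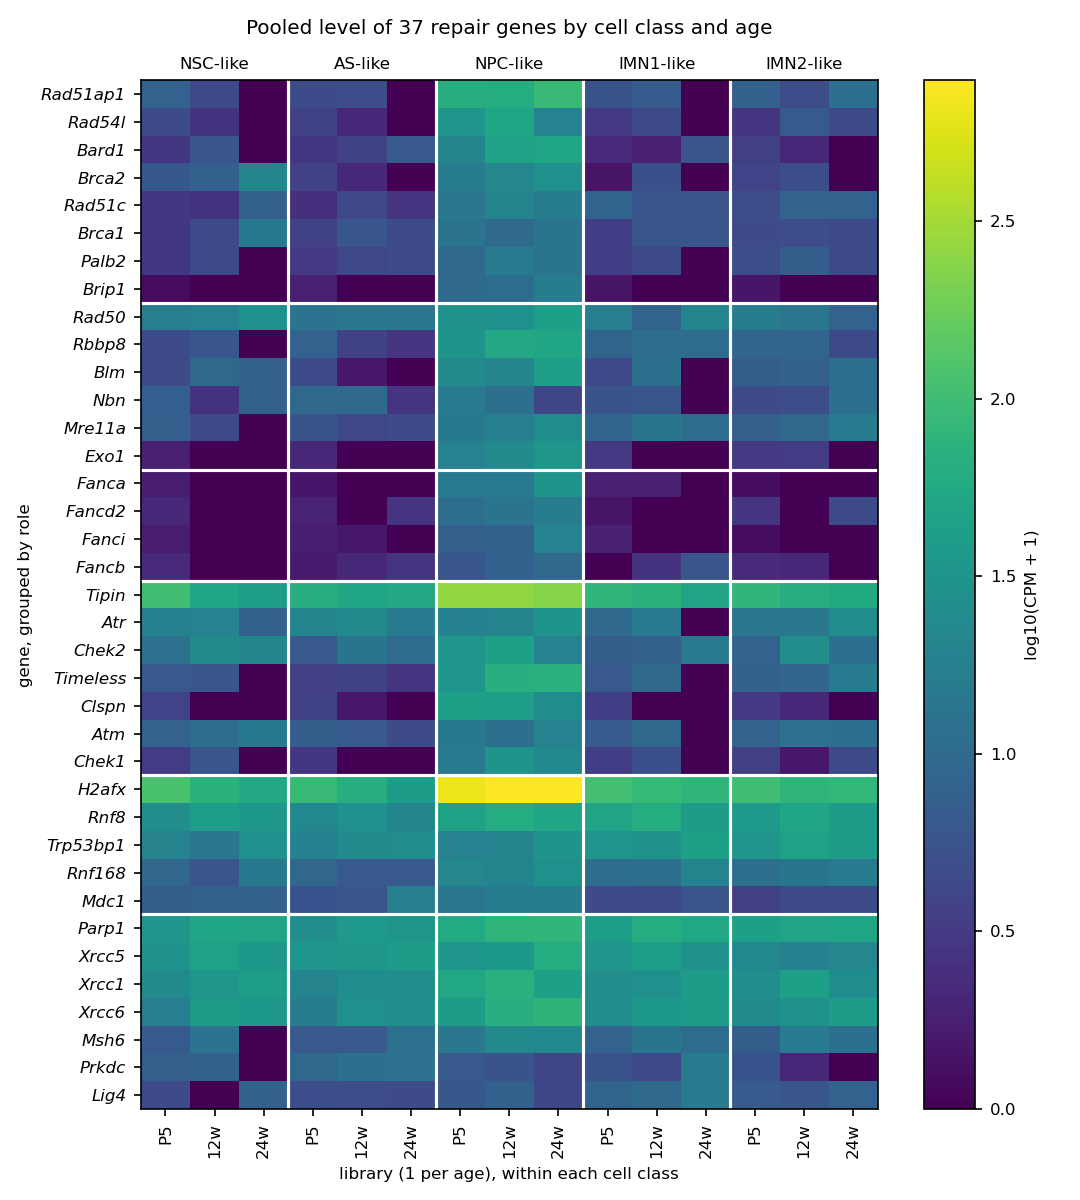
Pooled level of each of the 37 genes, as log10(CPM + 1), in 5 cell classes (blocks of columns) and 3 libraries (P5, 12 weeks and 24 weeks within a block), with genes grouped by role. The highest levels lie in the NPC-like block for most genes, and a 0 at 24 weeks can reflect few cells, since 3 UMIs there correspond to 9.15 CPM in NPC-like and 20.5 CPM in NSC-like cells.

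Set against NSC-like cells within each library, 19 of the 37 genes had enough UMIs to compare, and 9 of the 19 were at least 2-fold higher in NPC-like cells in all 3 libraries, against 7.51% of 6800 genes. These genes, named because they met this limit, were Bard1, Rad51ap1, Rbbp8, Exo1, Blm, Fanca, Timeless, Tipin and H2afx. At 24 weeks Bard1, Rad51ap1, Rbbp8, Exo1, Fanca and Timeless had no UMI in the 38 NSC-like cells and Blm had 1, so that all 7 had enough UMIs to compare only through the NPC-like class, and nothing is read from the count of 9. The exact lower limit of the 24-week ratio was under 2 for Bard1 and Rbbp8 (both 1.73), Exo1 (1.12), Fanca (1.003) and Blm (0.873), so a 2-fold difference at that age is not shown for these 5 genes. It was 2.49 for Tipin, 2.57 for Timeless, 3.42 for Rad51ap1 and 7.21 for H2afx. Timeless and Rad51ap1 had enough UMIs only through the NPC-like class, so their limits are given as values and nothing is read from them. At P5, where the counts were largest, the ratio was above 1 with an interval that left out 1 for 32 of the 37 genes, against 23.8% of the 13423 genes with at least 10 UMIs over both classes. It was below 1 in this way for none, against 32.2%, and its median was 3.08 over the 37 genes and 0.925 over all of these genes. NPC-like cells were named by cell cycle genes and the classes were built from the same cells, so these counts describe the classes and are not a test.

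H2afx had the most UMIs of the 37 genes over the 5 classes. It was at 671 CPM in NPC-like and 114 CPM in NSC-like cells at P5, a ratio of 5.89 (5.39 to 6.45), at 783 and 71.3 CPM at 12 weeks and at 787 and 54.5 CPM at 24 weeks. Its levels in the immature neuron-like and AS-like cells lay between 38.5 and 106 CPM. Tipin, with the next most UMIs, was at 269 and 102 CPM in NPC-like and NSC-like cells at P5 (ratio 2.65, 2.40 to 2.92), 258 and 51.4 CPM at 12 weeks and 232 and 40.9 CPM at 24 weeks. Rad51ap1 was low outside NPC-like cells, with 62.0, 60.4 and 91.5 CPM there against 7.15, 3.32 and 0 CPM in NSC-like cells. At 24 weeks its level in NPC-like cells was 4.47 times what 3 UMIs would give in NSC-like cells. The exact lower limit of the ratio was 3.42. Nothing is read from these 24-week values either, since Rad51ap1 had enough UMIs only through the NPC-like class.

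Several genes were spread more evenly over the classes. At P5 the NPC-like level of Xrcc5, 32.2 CPM, was close to those of NSC-like (30.1 CPM) and AS-like (32.1 CPM) cells, with a ratio of NPC-like to NSC-like of 1.07 (0.873 to 1.32). Its partner Xrcc6 was at 38.4 and 16.7 CPM in NPC-like and NSC-like cells, a ratio of 2.30 (1.80 to 2.98). At P5 the intervals of these Ku ratios did not overlap, whereas at 12 weeks they did, at 0.751 (0.469 to 1.23) for Xrcc5 and 1.81 (1.14 to 3.00) for Xrcc6. Atr at P5 reached 17.5 CPM in the progenitor-like class, 17.6 CPM in the stem-like one and 19.1 CPM in the astrocyte-like one, with a ratio of NPC-like to NSC-like of 0.999 (0.763 to 1.32).

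Parp1 and Xrcc1, which act at single-strand breaks, were intermediate. Parp1 was at 57.9 and 31.0 CPM in NPC-like and NSC-like cells at P5 (ratio 1.87, 1.55 to 2.26) and at 42.7 CPM in IMN2-like cells. Xrcc1 was at 52.8 and 23.4 CPM in NPC-like and NSC-like cells (ratio 2.26, 1.83 to 2.80). The chromatin mediators Rnf8 and Trp53bp1 did not pass the test after knockdown. Rnf8 was at 45.1, 61.6 and 48.8 CPM in NPC-like cells at P5, 12 weeks and 24 weeks and at 47.7, 60.6 and 38.3 CPM in IMN1-like cells, with intervals that overlapped at each age. In NSC-like cells it was at 26.2, 41.5 and 34.1 CPM. Trp53bp1 was at 31.5 and 31.0 CPM in IMN1-like and IMN2-like cells and at 18.5 and 18.9 CPM in NPC-like and NSC-like cells at P5. At 12 weeks Trp53bp1 was at 29.9 and 44.5 CPM in the neuron-like classes and at 19.4 and 13.3 CPM in NPC-like and NSC-like cells.

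The NPC-like cells fell into a cluster led by S phase genes such as Mcm2 and Rrm2 and a cluster led by genes of mitosis such as Cdc20 and Ccnb1. Most of the repair genes were higher in the S phase cluster at P5. There, 23 of the 37 genes had a ratio of the S phase to the mitosis cluster above 1 with an interval that left out 1, against 16.8% of 12674 genes with at least 10 UMIs over both clusters. At 12 weeks it was 16 of 36 against 12.1% of genes, and at 24 weeks 2 of 17 against 6.09%, where the counts were small. Exo1 had the highest ratio at P5, 2.60 (1.87 to 3.69), followed by Clspn at 2.55 (2.05 to 3.18), Msh6 at 2.50 (1.70 to 3.74) and Timeless at 2.50 (1.95 to 3.22). Tipin was at 356 and 184 CPM, a ratio of 1.93 (1.78 to 2.10), and Rad51ap1 at 85.0 and 39.2 CPM.

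H2afx went the other way and was, at each age, the only one of the 37 genes whose interval lay below 1 (against 15%, 7.39% and 6.8% of all genes at P5, 12 weeks and 24 weeks). It was at 448 CPM in the S phase and 892 CPM in the mitosis cluster at P5, a ratio of 0.502 (0.477 to 0.529). At 12 weeks it was at 466 and 1376 CPM, and at 24 weeks at 490.0 and 1362 CPM. Fancd2, Fanci, Chek2 and Mdc1 had ratios below 1 at P5 with intervals that included 1, so for these the clusters could not be distinguished at this depth.

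**Figure D4:**
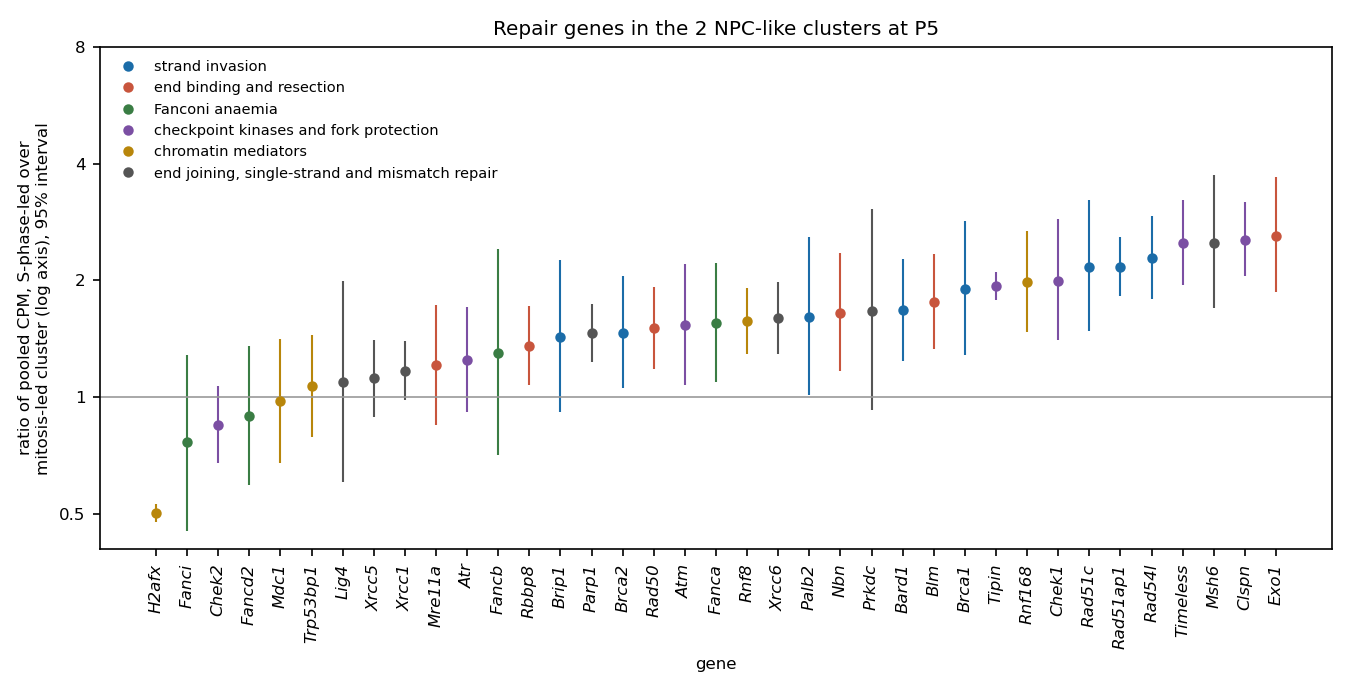
Ratio of pooled CPM in the S-phase-led to that in the mitosis-led NPC-like cluster at P5 (log axis) for each of the 37 genes, with exact 95% counting intervals and colours for roles. H2afx lies at 0.502, and 23 genes have an interval above 1.

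In the adult libraries the level of the repair genes in NPC-like cells was not lower than at P5. The summed level at 12 weeks was 1.19 (1.15 to 1.24) times that at P5, and at 24 weeks 1.22 (1.13 to 1.32) times. Over the same cells the summed S phase genes were at 1.84 (1.79 to 1.90) and 1.72 (1.61 to 1.84) times P5, and the genes of mitosis at 0.880 (0.856 to 0.905) and 0.974 (0.918 to 1.03). The S phase cluster held 51.9% of NPC-like cells at P5, 66.8% at 12 weeks and 61.4% at 24 weeks. Within it the repair genes summed to 1776, 1976 and 1974 CPM, and within the mitosis cluster to 1693, 2245 and 2393 CPM. Most of the difference in the mitosis cluster was H2afx, since the other 36 genes summed there to 801, 868 and 1031 CPM, with ratios to P5 of 1.08 (0.989 to 1.19) at 12 weeks and 1.29 (1.06 to 1.55) at 24 weeks. In the S phase cluster the other 36 genes had ratios of 1.14 (1.08 to 1.199) and 1.12 (0.996 to 1.25), and over all NPC-like cells 1.21 (1.16 to 1.27) and 1.25 (1.13 to 1.38). Markers of other cell types also differed between the ages in NPC-like cells: relative to P5, the sums at 12 and 24 weeks were 0.574 and 0.454 for the 5 astrocyte markers, 0.246 and 0.332 for the 5 oligodendrocyte lineage markers, 0.288 and 0.244 for the 6 NSC culture markers and 1.40 and 1.18 for the 5 neuron markers. Their part in the ratios of the repair genes was not tested.

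By gene, 13 of the 37 had enough UMIs for the ages to be compared in NPC-like cells. Of these, 1 was at least 2-fold higher than P5 at both adult ages, against 2.51% of 4702 genes, and none was 2-fold lower, against 3.25%. That gene, named for this, was Timeless, with ratios of 2.07 (1.66 to 2.57) at 12 weeks and 2.18 (1.36 to 3.33) at 24 weeks. When ratios were divided by the median ratio of all genes, 1.06 at 12 weeks, Timeless was just under 2-fold. Its partner Tipin had ratios of 0.957 (0.864 to 1.06) and 0.860 (0.676 to 1.08). Xrcc6 was at 1.72 (1.39 to 2.12) and 1.98 (1.27 to 2.97) times P5, H2afx at 1.17 (1.10 to 1.24) and 1.17 (1.03 to 1.33), and Parp1 at 1.34 (1.10 to 1.62) and 1.37 (0.887 to 2.03). Over all 37 genes, the 12-week ratio had an interval above 1 for 12, against 25.8% of 13005 genes with at least 10 UMIs, and below 1 for none, against 14.5%. The 24-week ratio had an interval above 1 for 5, close to the 12.6% of all genes, and below 1 for none, against 7.01%. With 1 library per age the ages have no replicate check.

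**Figure D5:**
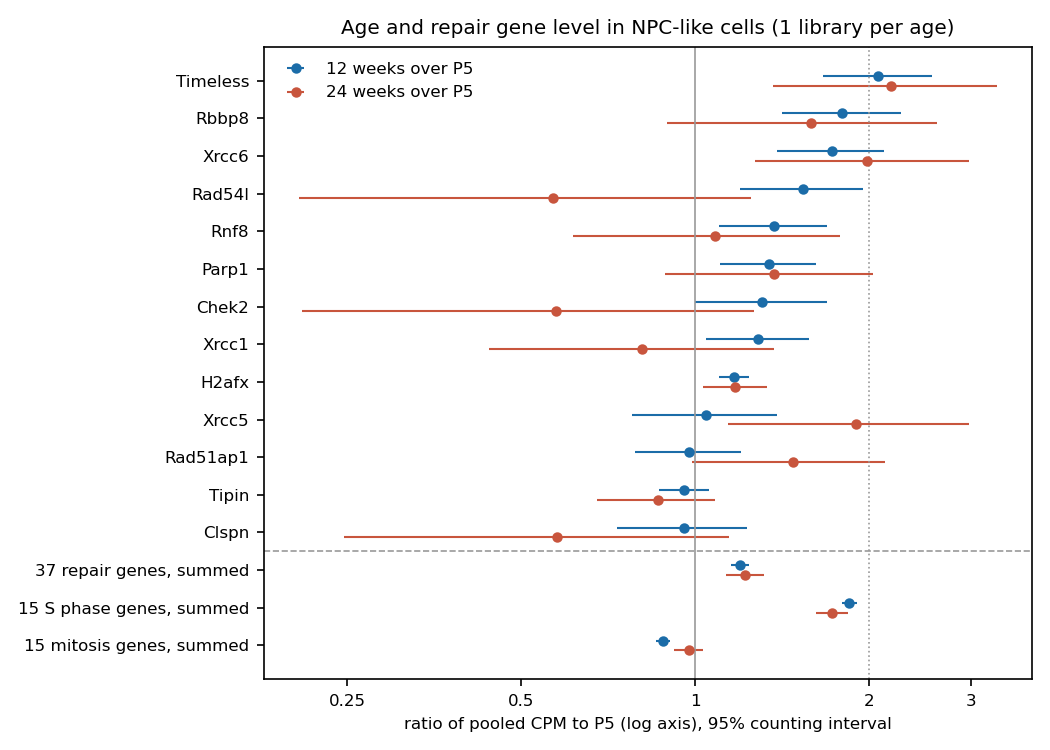
Ratio of pooled CPM at 12 weeks (blue) and 24 weeks (red) to P5 in NPC-like cells (log axis) with exact 95% counting intervals, for the 13 genes with enough UMIs and for the summed 37 repair, 15 S phase and 15 mitosis genes. Timeless lies above 2 at both ages (dotted line), and the repair genes sum to 1.19 and 1.22.

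In NSC-like cells the ratio of the summed level to P5 was 0.982 (0.868 to 1.11) at 12 weeks and 0.921 (0.713 to 1.17) at 24 weeks. That sum joined opposite movements: without H2afx and Tipin, which were lower, the other 35 genes stood at 1.29 (1.12 to 1.49) times P5 at 12 weeks and 1.28 (0.957 to 1.68) at 24 weeks. This split was chosen after seeing the data, and leaving out lower genes raises the ratio of the rest by construction. H2afx and Tipin were the genes with enough UMIs to be compared there, and neither was past 2-fold at both ages (3.03% of 2510 genes were lower and 3.78% higher), although both were past 2-fold lower once RNA free in the cell suspension was subtracted, which could be done in the adult libraries alone and by construction can only lower a ratio to P5. The intervals of both lay below 1: H2afx was at 0.626 (0.447 to 0.855) and 0.479 (0.206 to 0.950) times P5, and Tipin at 0.505 (0.339 to 0.726) and 0.402 (0.147 to 0.881). Over all genes compared there 47.0% lay below 1 at both ages, with medians of 0.93. At 12 weeks 3 other repair genes had an interval above 1 in NSC-like cells, against these 2 below 1. They were Chek2 at 2.10 (1.07 to 3.85), Xrcc6 at 2.19 (1.30 to 3.55) and Parp1 at 1.605 (1.045 to 2.39). None of them had enough UMIs for the 2-fold rule. At 24 weeks no repair gene had an interval above 1 there. The share of all genes with an interval above or below 1 in NSC-like cells was not computed. In AS-like cells H2afx stood at 0.713 (0.585 to 0.862) and 0.440 (0.271 to 0.674), and Tipin at 0.776 (0.623 to 0.957) at 12 weeks. In IMN2-like cells at 12 weeks H2afx was at 0.783 (0.641 to 0.951) and Tipin at 0.780 (0.623 to 0.971). Other repair genes went the other way in these classes. At 12 weeks IMN2-like cells had 6 repair genes with an interval above 1 and 2 below 1. AS-like cells had 3 above 1 and 4 below 1 at that age. The genes of mitosis also stood lower in NSC-like cells, at 192 CPM at P5, 48.1 CPM at 12 weeks and 0 CPM at 24 weeks. At 24 weeks 3 UMIs correspond to 20.5 CPM. This drop was not peculiar to NSC-like cells. AS-like cells stood at 0.228 and 0.246 times P5 at 12 and 24 weeks. The neuron-like classes (IMN1-like first) were at 0.265 and 0.331 at 12 weeks, then at 0.0955 and 0.138. At P5 these classes held 172 to 205 CPM. NPC-like cells stayed at 0.880 and 0.974 times P5. In NSC-like cells the 15 S phase genes stayed close to P5, at 291, 270 and 286 CPM. Their ratios were 0.929 (0.7845 to 1.09) and 0.984 (0.706 to 1.34). The part of either list in the lower H2afx and Tipin was not tested. The clusters that make up the NSC-like class also shifted: the Cyr61 and Fos cluster held 41.0% of these cells at P5, 18.4% at 12 weeks and 15.8% at 24 weeks, and the largest cluster 44.5%, 74.1% and 73.7%. Within that largest cluster H2afx was at 118, 69.9 and 52.7 CPM and Tipin at 95.8, 50.2 and 26.4 CPM. The 24-week values there rested on 6 UMIs of H2afx and 3 of Tipin in 28 cells. In the Cyr61 and Fos cluster H2afx was at 105.6, 47.9 and 39.2 CPM and Tipin at 117.7, 67.1 and 117.6 CPM. Its 24-week values rested on 1 UMI of H2afx and 3 of Tipin in 6 cells. Markers moved more: relative to P5, the astrocyte markers summed to 2.197 and 2.04 in NSC-like cells at 12 and 24 weeks, the oligodendrocyte lineage markers to 0.630 and 0.567, the neuron markers to 0.750 and 0.670 and the NSC culture markers to 0.351 and 0.286, and their part in the ratios of the repair genes was not tested.

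By role, the checkpoint and fork protection genes summed to 0.762 (0.585 to 0.979) and 0.553 (0.284 to 0.972) times P5 in NSC-like cells at 12 and 24 weeks, and the chromatin mediators to 0.795 (0.626 to 0.998) and 0.787 (0.478 to 1.23). Without Tipin the checkpoint ratio was 1.33 (0.911 to 1.89) at 12 weeks and 0.886 (0.322 to 1.96) at 24 weeks, and without H2afx that of the mediators 1.12 (0.784 to 1.57) at 12 weeks, so each of these intervals below 1 rested on 1 gene. The intervals of strand invasion and of end resection genes included 1 at both ages, and the Fanconi genes had 17 UMIs at P5 and none later. The 7 genes of end joining, single-strand break and mismatch repair were higher in NSC-like cells at 12 weeks than at P5: their sum was 117 CPM at P5 and 182 CPM at 12 weeks, a ratio of 1.56 (1.26 to 1.92), and 164 CPM at 24 weeks (ratio 1.40, 0.888 to 2.10). Within the largest NSC-like cluster it was 133, 183 and 167 CPM. The sums of this role were also above P5 at 12 weeks in AS-like (1.27, 1.11 to 1.45), NPC-like (1.36, 1.23 to 1.51), IMN1-like (1.32, 1.11 to 1.57) and IMN2-like cells (1.23, 1.06 to 1.43). For the 16 other genes of these pathways the intervals included 1 in NSC-like cells, with ratios of 1.05 (0.912 to 1.199) at 12 weeks and 0.962 (0.719 to 1.26) at 24 weeks, and in AS-like cells, at 1.07 (0.982 to 1.17) at 12 weeks. In NPC-like cells they stood at 1.31 (1.24 to 1.38) times P5 at 12 weeks, in IMN1-like cells at 1.11 (1.01 to 1.21) and in IMN2-like cells at 1.31 (1.21 to 1.41). The 30 other recombination and Fanconi genes were above P5 at 12 weeks in all 5 classes, with ratios of 1.19 (1.07 to 1.33) in NSC-like, 1.297 (1.22 to 1.38) in AS-like, 1.304 (1.25 to 1.37) in NPC-like, 1.26 (1.15 to 1.39) in IMN1-like and 1.21 (1.11 to 1.31) in IMN2-like cells, so higher sums were not peculiar to the end joining role. RNA free in the suspension, estimated from vascular markers in the adult libraries, was 7.25% to 12.8% of the UMIs of the neural classes. It would make up 2.80% and 2.95% of the UMIs of the 37 genes in NPC-like cells and 13.4% and 13.3% in NSC-like cells at 12 and 24 weeks. It could not be estimated at P5, where no empty barcodes were listed.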

How the data were processed

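RNA-seq values were TPM made by the authors (50-bp single-end reads, Trimmomatic, STAR, mm10, from a directional library kit; the study's tool list names RSEM, and the strand setting of the counting is not given in the sources used here), and whole reads were recovered from the deposited TPM and gene lengths for 100% of 6244 to 6487 low values per library (tolerance 0.05 reads). Genes with a mean TPM of at least 1 were tested with limma 3.58.1 (eBayes with trend) on log2(TPM + 1), 2-sided, with Benjamini-Hochberg adjustment. Libraries of this design (12670 genes) were simulated with 200 genes changed and a fixed dispersion that was not estimated from the data. In them limma recovered 82% of genes changed 2-fold and 23% of those changed 1.5-fold with 28 false calls, and edgeR 94% and 65% with 6 false calls. In the data 21.7% of genes fell and 20% rose, a far larger share than was changed in the simulation. These rates therefore do not carry over to the calls here. scRNA-seq counts were deposited as UMIs per gene and barcode (Cell Ranger 2.2.0, mm10). Cells had to hold 1000 UMIs and 500 genes or more, with no more than 10% of UMIs mitochondrial. Scrublet doublets were removed (6.81% at P5, 1.5% at 12 weeks, 0.107% at 24 weeks), and Seurat 5.3.0 integration was followed by 2 rounds of clustering at a resolution of 0.8. A gene was compared between classes with at least 10 UMIs over both in each library and between ages (2-fold rule) with at least 10 expected UMIs per library, with 0.5 UMIs added to a ratio. The peak positions were as deposited, called in each library, and GENCODE M21 (GRCm38) gave the start sites.

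The 37 genes and all lists were chosen with earlier results of these data known. Values in every library were printed for the 14 called genes with the largest changes, taken by rank within each role, and for Brca1, Bard1 and Trp53bp1; across cell classes, for the 10 genes with the most UMIs. Genes outside these rules were named after their values were seen. Nothing in the labels says that the RNA-seq libraries came from separate cultures, so p-values may measure technical spread. The bulk ATAC-seq and CUT&RUN samples were not analysed here.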

Additional observations from a re-analysis of the deposited data

How the results depend on the processing

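The count of 32 genes lower with knockdown lay between 28 and 34 when 1 control library was left out, and was 30 of 33 with a mean TPM of at least 5, 35 in edgeR, 32 in DESeq2, 32 with a pseudocount of 0.1 TPM, 32 after centring on the median and 22 with a limit of 1.5-fold added. Without a filter on low values it was 12, with 24062 genes tested, and with the groups as labelled it was 0. In that grouping 3 genes changed sign: Trp53bp1 (0.060), Xrcc5 (0.017) and Rnf8 (-0.093). With 1 control left out Rnf8 lay between -0.0080 (without Setd8KD_2, a change of sign) and 0.069 (without Ctrl_3). Nbn, Atr and Prkdc lost their call without Setd8KD_1 or without Setd8KD_2, and Fancb without Setd8KD_1; Nbn lost it in DESeq2 too. Trp53bp1 and Xrcc5 gained a call without Ctrl_3 and in edgeR, Xrcc5 with a mean TPM of at least 5, Trp53bp1 in DESeq2 and Palb2 in edgeR. The 9 genes higher in NPC-like than in NSC-like cells were 8 to 12 under the 4 alternatives (1.5-fold, cells of at least 2000 UMIs, doublets kept, resolution 0.4). The 1 gene past 2-fold between ages in NPC-like cells was 3 with a limit of 1.5-fold and 0 with ratios divided by their median. The 0 genes in NSC-like cells were 2 with 1.5-fold and 2 with free RNA subtracted, which was possible in the adult libraries alone and by construction can only lower a ratio. In sums chosen after seeing the data, the 12-week ratios of NSC-like cells turned above 1 without Tipin (checkpoint genes, 1.33, against 0.886 at 24 weeks) and without H2afx (chromatin mediators, 1.12). The 8 genes with an E2F-type site were 5 with the 250 bases before the start only. With any annotated start, an alternative chosen after seeing the data, all 37 genes had a peak in each library. So did 98.1%, 98.3% and 98.1% of the genes expressed in the cultured NSCs at P5, 12 weeks and 24 weeks. The shares of all protein-coding genes were 71.0%, 71.9% and 70.5%. No paired analysis was possible because the knockdown group had 1 library with values. At 24 weeks the 38 NSC-like cells limit what can be seen: 3 UMIs there correspond to 20.5 CPM, above the level of most of the 37 genes. Borders between clusters also moved with the numerical library settings of the machine, which were fixed here, and levels per class moved slightly with them.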
